A study of Gallus gallus with 6 samples.

Results

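Complement and coagulation factors are plasma proteins that are made largely by the hepatocytes of the liver. The members were 34 gene symbols of the complement cascade, of blood clotting and of their inhibitors. They were chosen by name, with earlier results of these data known, and matched to the expression table without regard to case. Of these, 30 had a row among the 14481 protein-coding genes of the table. PLG, C3, C9 and CLU had no row of that symbol and were not analysed here. Liver RNA was sequenced from 3 chickens labelled ALV-J-resistant and 3 labelled ALV-J-susceptible. ALV-J is the J subgroup of avian leukosis virus, a chicken retrovirus that causes tumours. The labels give the liver and the group of each bird, but neither age, sex, breed, infection nor treatment. The study asked which genes differ between the livers of the resistant and the susceptible birds. Values are the authors' FPKM (fragments per kilobase of transcript scaled to depth), which allow levels to be compared between genes, and birds are given in the order 1, 2 and 3 of their titles.

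Complement marks microbes and infected cells and can pierce their membranes. It is started by antibody through the C1 proteases, or by sugars on a surface through mannose-binding lectin and its proteases, and it ends with C5 to C9, which assemble into the membrane attack complex. Clotting is a chain of proteases, several of which need vitamin K for their synthesis, that ends when thrombin turns fibrinogen into fibrin. Plasma inhibitors, many of them serpins, hold both chains in check. In mammals many of these genes are acute-phase genes, whose transcription in hepatocytes rises during inflammation.

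The libraries held between 3831108 and 6623024 fragments on the genes of the table, and between 6671 and 9424 genes lay above 0 in a bird. Of the 30 members present, 29 lay above 0 in all 6 birds and passed the filter of a mean of at least 0.5 FPKM. Each of the 29 was covered by at least 90 fragments in every bird. TFPI, the inhibitor of the tissue factor pathway, had 1.70 FPKM from 16 fragments in resistant 1, was listed at 0 in the other 5 birds and was not tested. Of 15 hepatocyte markers 12 were in the table. ALB, the albumin gene, stood at 0 in 2 birds, resistant 2 and susceptible 3, but had 24858 to 30679 FPKM in the other 4 birds, and APOB was listed at 0 in resistant 2. TF and TTR had at least 3122 and 3673 FPKM in every bird, so a listed 0 of a main liver gene is not read as absence. The libraries differed in a way the groups do not explain. Resistant 3 and susceptible 3 had 0 fragments on the 9 genes of chromosome W, while resistant 1 and 2 and susceptible 1 and 2 had 427, 413, 406 and 145. A count of 0 allows up to 3 such fragments. Chromosome W is carried by hens, and the labels do not give sex. Each group thus held 1 bird without and 2 birds with these fragments, and both birds without them carry number 3 in their titles.

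No member differed between resistant and susceptible livers beyond the spread between birds. With limma, 0 of 29 members passed a Benjamini-Hochberg adjusted p under 0.05, where 0% of the 9626 genes tested passed. At an unadjusted p under 0.05 the count was again 0 of 29, against 3.87% of all genes. All 3 birds of a group lay on one side of the other group for 1 member (3.45%), against 8.41% of all genes. By direction, all resistant birds lay above all susceptible birds for 1 member, against 4.44% of all genes, and below them for 0 members, against 3.98%. The level of 21 of the 29 was lower on average in resistant livers, 6 of them on the other side of 0 under quantile normalization, and the median log2 difference over the 29 was -0.17. Over all genes tested the median was 0.05 and over the 4993 above 0 in all birds it was -0.09. The widest differences instead set 1 bird of each group apart from the other 4. Resistant 3 and susceptible 3 together averaged 2.36 to 3.15 times the level of each fibrinogen chain in the other livers and 8.11 times their C6 level. In whole liver, fewer hepatocytes and less RNA per hepatocyte cannot be told apart.

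**Figure D1:**
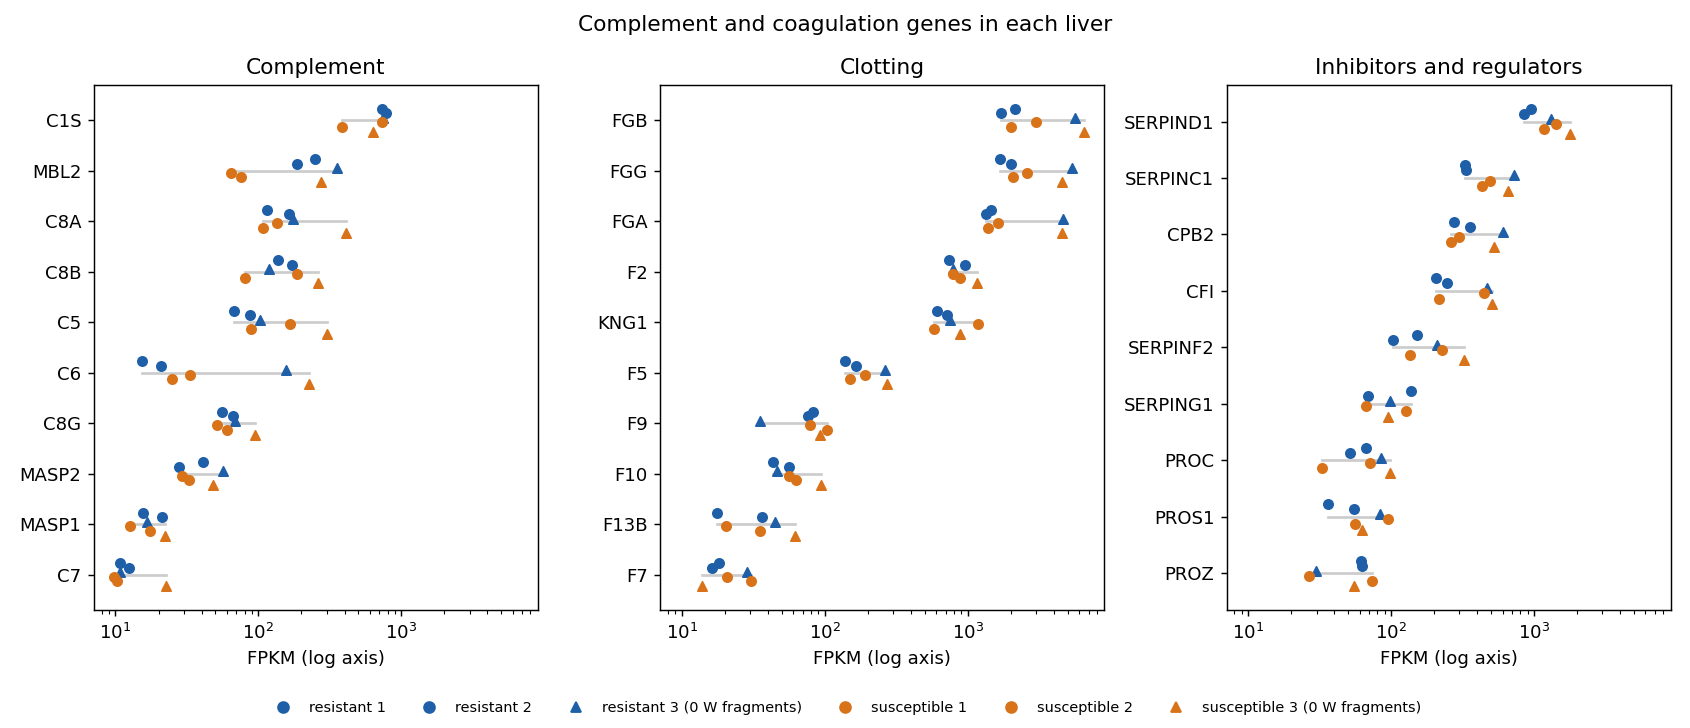
FPKM of the 29 tested members in each liver, on a log axis, with complement, clotting and inhibitor genes apart and genes in order of mean level. Each symbol is 1 bird, blue for resistant and orange for susceptible, and the grey line spans the 6 birds. Triangles mark the birds with 0 fragments on chromosome W. FGA, FGB, FGG and C6 are among the 14 genes with both triangles to the right of all circles.

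Among the 10 complement members in the table, C1S had the highest mean level. C1S, a protease of the C1 complex on the antibody route, had 737, 776 and 739 FPKM in resistant livers, against 729, 386 and 637 FPKM in susceptible livers. It was the 1 member whose groups did not overlap, with every resistant bird above every susceptible bird. Its means were 751 ± 21.9 FPKM in resistant and 584 ± 178 FPKM in susceptible livers (SD, n = 3 each). The log2 difference was 0.41 (SE 0.38, 95% interval -0.43 to 1.26), and limma gave an adjusted p of 0.98. C1S lies on the plus strand of chromosome 1 (1:76859359-76868459, galGal4).

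The lectin route starts with MBL2, mannose-binding lectin. MBL2 had 249, 186 and 352 FPKM in resistant livers, against 64.4, 75.8 and 275 FPKM in susceptible livers. The low values belong to susceptible 1 and 2, while susceptible 3 lay above 2 resistant birds, so the groups overlap. Its means were 262 ± 83.4 FPKM in resistant and 138 ± 118 FPKM in susceptible livers (SD, n = 3 each). The log2 difference, 1.19 (SE 0.56, interval -0.05 to 2.44), was the most positive of the 29, and its limma p was 0.058 unadjusted and 0.98 adjusted. Without each bird in turn the difference ran from 0.81 to 1.85, with limma adjusted p-values of 0.836 to 0.986. Among the 4 birds with chromosome W fragments alone, 2 of each group, the difference was 1.61 (SE 0.25). The limma p was 0.0049 unadjusted and 0.27 adjusted. In that setting MBL2 was the 1 member of 29 with an unadjusted p under 0.05, against 834 of 9626 genes. In the 2 birds without those fragments the order was the same, with 352 FPKM in resistant 3 and 275 FPKM in susceptible 3. MBL2 lies on the minus strand of chromosome 6 (6:3981178-3989358, galGal4).

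The proteases that MBL2 activates were lower in level. MASP2, which cleaves the next components of the lectin route, had 41.0, 27.9 and 56.9 FPKM in resistant and 29.1, 32.6 and 48.2 FPKM in susceptible livers. MASP1, which activates MASP2, had 15.7, 21.3 and 16.6 FPKM in resistant and 12.7, 17.4 and 22.4 FPKM in susceptible livers. Both overlapped between groups, with log2 differences of 0.17 (SE 0.44) for MASP2 and 0.05 (SE 0.49) for MASP1. MASP2 stood at 1.31 to 3.44 times MASP1 in a bird, highest in resistant 3.

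C5, whose cleavage begins the membrane attack complex, showed the most negative difference of the 29. It had 67.7, 87.6 and 103 FPKM in resistant livers, against 167, 88.7 and 300.1 FPKM in susceptible livers. The highest resistant bird lay above susceptible 2, so the groups overlap by that bird. The means were 86.0 ± 17.7 FPKM in resistant and 185 ± 107 FPKM in susceptible livers (SD, n = 3 each). The log2 difference was -0.95 (SE 0.47, interval -2.00 to 0.11), and the limma p was 0.074 unadjusted and 0.98 adjusted. Susceptible 3 was the highest bird for C5 as for 15 other members.

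The C8 protein joins the complex with an alpha, a beta and a gamma chain. C8A, the alpha chain, had 115, 165 and 175 FPKM in resistant and 136, 107 and 412 FPKM in susceptible livers. C8B, the beta chain and a neighbour of C8A on chromosome 8 at a gap of 4.465 kb, had 137, 172 and 118 FPKM in resistant and 186, 81.2 and 263 FPKM in susceptible livers. C8G, the gamma chain, which belongs to the lipocalin family, had 55.2, 66.1 and 68.7 FPKM in resistant and 51.1, 60.6 and 93.9 FPKM in susceptible livers. The 3 chains were not at equal mRNA levels: C8A stood at 1.77 to 4.38 times C8G in a bird, and C8B at 1.34 to 3.63 times. All 3 were highest in susceptible 3 and overlapped between groups. C8G overlaps FBXW5 on the other strand, and the sources used here do not say whether strand was used in counting.

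C6 and C7 bind C5b one after the other to start the attack complex, and their genes lie side by side on chromosome Z, 7.393 kb apart with no other gene of the table between them. C6 had 15.4, 20.8 and 156 FPKM in resistant livers, against 33.0, 24.8 and 225 FPKM in susceptible livers. C7 had 10.8, 12.5 and 10.7 FPKM in resistant livers, against 9.80, 10.2 and 22.6 FPKM in susceptible livers. Bird 3 of each group stood far above its own group for C6, while for C7 only susceptible 3 did. The ratio of C6 to C7 was 1.42, 1.66 and 14.6 in resistant livers, against 3.37, 2.44 and 9.97 in susceptible livers. Between groups the log2 difference of C6 was -0.61 (SE 0.98, interval -2.80 to 1.59), the widest interval of the 29. C6 spans 12824879 to 12849014 on the minus strand and C7 spans 12795475 to 12817485 on the plus strand of chromosome Z in galGal4.

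Fibrinogen dominated the clotting members. Its alpha, beta and gamma chains, FGA, FGB and FGG, are neighbours on chromosome 4, with gaps of 6.176 kb between FGB and FGA and 3.327 kb between FGA and FGG. FGA had 1448, 1344 and 4614 FPKM in resistant livers, against 1619.6, 1395 and 4528 FPKM in susceptible livers. FGB had 2133, 1699 and 5606 FPKM in resistant livers, against 2980.0, 2014 and 6489 FPKM in susceptible livers. FGG had 1688, 2008 and 5374 FPKM in resistant livers, against 2602, 2082 and 4534 FPKM in susceptible livers. In each group bird 3 was the high one, and resistant 3 and susceptible 3 had nearly the same level of FGA. The group means were almost level: FGA averaged 2469 ± 1858 FPKM in resistant and 2514 ± 1748 FPKM in susceptible livers (SD, n = 3 each).

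The log2 differences between groups were -0.06 (SE 0.63) for FGA, -0.31 (SE 0.61) for FGB and -0.14 (SE 0.56) for FGG, and limma gave adjusted p-values between 0.995 and 0.999. All 3 chains were higher in resistant 3 and susceptible 3 than in any other bird, but they did not always move together. From resistant 1 to resistant 2, FGB fell from 2133 to 1699 FPKM while FGG rose from 1688 to 2008 FPKM. From resistant 3 to susceptible 3, FGB rose from 5606 to 6489 FPKM while FGG fell from 5374 to 4534 FPKM. The summed level of the 3 chains was 5269, 5051 and 15593 FPKM in resistant and 7202, 5491 and 15551 FPKM in susceptible livers. FGB over FGA lay between 1.22 and 1.84 in every bird, FGG over FGA between 1.00 and 1.61, and FGG over FGB between 0.70 and 1.18. FGA itself spanned 3.43-fold over all birds, but 1.21-fold among the 4 birds with fragments on chromosome W. FGB lies at 19781104 to 19787443 on the plus strand, FGA at 19793620 to 19800505 and FGG at 19803833 to 19811032 on the minus strand of chromosome 4 in galGal4.

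F2, prothrombin, was the steadiest member. It had 744, 963 and 786 FPKM in resistant livers, against 787, 881 and 1159 FPKM in susceptible livers, and the SD of its log2 values over the 6 birds was 0.24, the smallest of the 29. Bird 3 of the resistant group was not high for F2, so FGA stood at 5.87 times F2 there and at 3.91 times in susceptible 3, against 1.40 to 2.06 times in the other 4 birds. F2 overlaps CKAP5 on the other strand, which had at most 16.6 FPKM in a bird.

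F7, F9 and F10 are the further vitamin K-dependent clotting proteases. F9, whose loss causes haemophilia B in humans, had 82.2, 75.8 and 34.9 FPKM in resistant livers, against 78.3, 103 and 92.3 FPKM in susceptible livers. Resistant 3, high for fibrinogen, was the lowest bird for F9. The log2 difference of F9 was -0.58 (SE 0.43, interval -1.54 to 0.37), the most negative of the clotting members. F10, which makes thrombin from prothrombin, had 43.6, 56.3 and 46.5 FPKM in resistant and 56.0, 62.7 and 93.7 FPKM in susceptible livers, and the log2 difference was -0.50 (SE 0.39). F7, the partner of tissue factor, had 18.2, 16.3 and 28.4 FPKM in resistant and 20.5, 30.6 and 13.9 FPKM in susceptible livers. F7 and F10 are neighbours on chromosome 1 at a gap of 2.864 kb, yet F10 over F7 ran from 1.64 in resistant 3 to 6.74 in susceptible 3.

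The remaining clotting members are cofactors and a carrier chain. F5, the cofactor of F10, had 139, 164 and 262 FPKM in resistant and 191, 149.9 and 271 FPKM in susceptible livers, with bird 3 highest in each group. F13B, the carrier chain of the enzyme that cross-links fibrin, had 17.7, 36.4 and 44.8 FPKM in resistant and 20.2, 35.5 and 62.0 FPKM in susceptible livers, again with bird 3 highest in each. KNG1, kininogen, the source of bradykinin, had 605, 713 and 749 FPKM in resistant and 1185, 581 and 878 FPKM in susceptible livers. Its highest bird was susceptible 1, which held that place for 2 of the 29 members. The log2 difference was below 0 for all 10 clotting members, from -0.58 for F9 to -0.02 for F7, with a median of -0.19. Every interval included 0, the values of F2, F5, F7, FGA and FGG lay above 0 under quantile normalization, and those of FGA and F7 under median ratios. The difference was below 0 for 6 of 10 complement members (median -0.12) and 5 of 9 inhibitors (median -0.27). Over all genes tested it was below 0 for 4548 of 9626. It was below 0 for 2824 of the 4993 genes with levels above 0 in all birds.

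**Figure D2:**
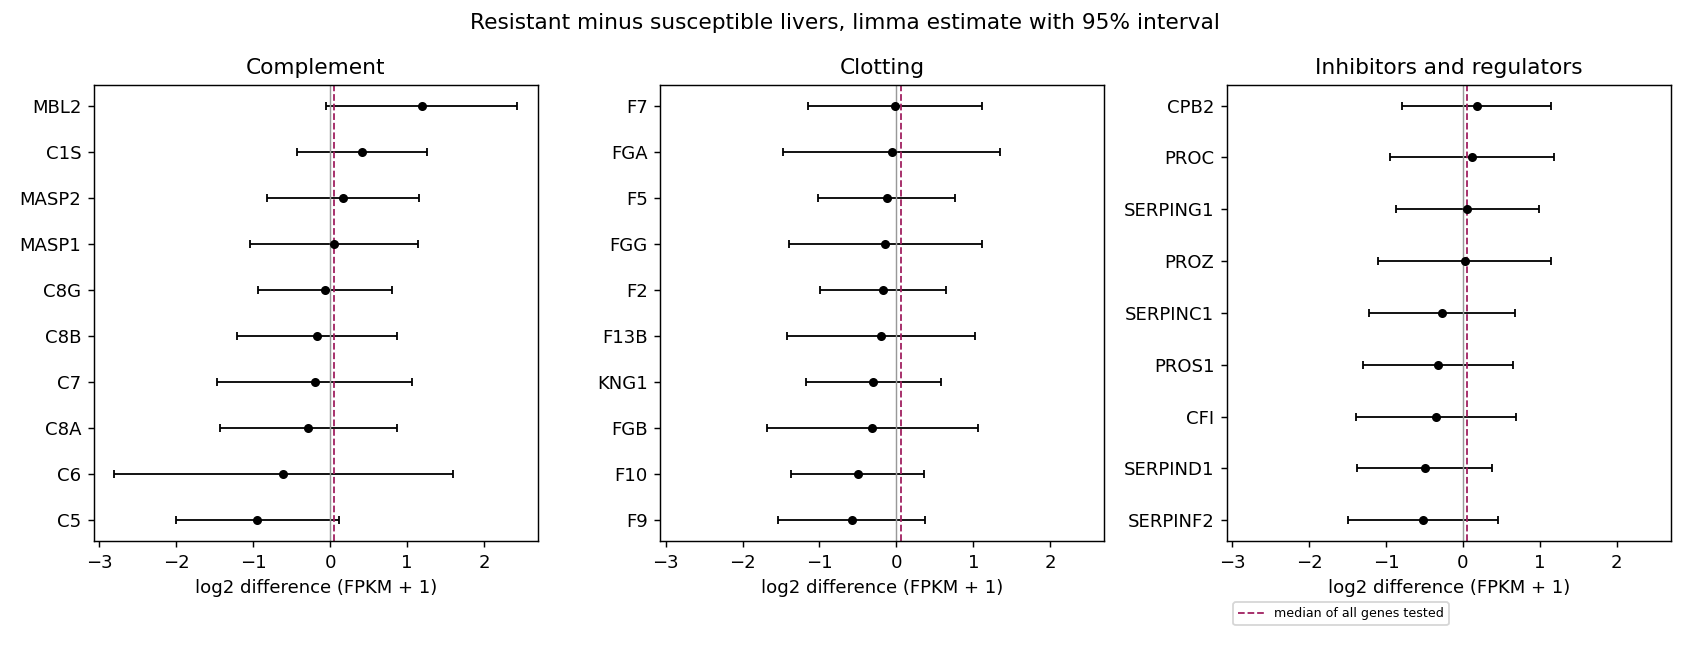
Difference in log2(FPKM + 1) of each tested member, resistant minus susceptible livers (x axis, points, with 95% intervals from limma), in complement, clotting and inhibitor panels ordered by size; n = 3 birds each. Every interval includes 0, MBL2 and C5 are farthest from it, and the dashed line is the median of all genes tested.

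The inhibitors fall into serpins, the protein C system and regulators of complement and fibrin breakdown. SERPIND1, heparin cofactor II, which inhibits thrombin, had 942, 853 and 1306 FPKM in resistant livers, against 1413, 1161 and 1791 FPKM in susceptible livers. Resistant 1 and 2 lay below every susceptible bird, but resistant 3 exceeded susceptible 2 and the groups overlap. The log2 difference was -0.49 (SE 0.39, interval -1.37 to 0.38), and its adjusted p by limma was 0.98. SERPIND1 overlaps PI4KA on the other strand, which averaged 28.3 FPKM.

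SERPINC1, antithrombin, the main inhibitor of thrombin and F10, had 328, 331 and 726 FPKM in resistant and 489.6, 429 and 655 FPKM in susceptible livers. SERPINF2, antiplasmin, which protects fibrin from plasmin, had 153, 103 and 209 FPKM in resistant and 225, 134 and 321 FPKM in susceptible livers. Bird 3 was the highest of its group for both genes. SERPING1, the inhibitor of the C1 and MASP proteases, had 137, 68.3 and 97.6 FPKM in resistant and 67.0, 127 and 95.3 FPKM in susceptible livers, and the groups overlap. Its log2 difference was 0.06 (SE 0.42), and that of SERPINC1 was -0.27 (SE 0.42). SERPING1 overlaps SMTNL1 on the same strand, a gene listed at 0 in all birds. It also overlaps UBE2L6 on the other strand, which averaged 12.5 FPKM and had at most 26.4 FPKM in a bird.

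CPB2, a carboxypeptidase that slows fibrin breakdown, had 273, 357 and 606 FPKM in resistant livers, against 298, 262 and 522 FPKM in susceptible livers. CFI, the protease that inactivates C3b and C4b, had 206, 244 and 469 FPKM in resistant livers, against 443, 217 and 508 FPKM in susceptible livers. Both were highest in bird 3 of each group, and their log2 differences were 0.18 (SE 0.43) for CPB2 and -0.35 (SE 0.46) for CFI. PROC, protein C, which inactivates F5, had 66.5, 51.3 and 84.2 FPKM in resistant and 70.5, 32.6 and 97.4 FPKM in susceptible livers. PROS1, protein S, its cofactor, had 36.3, 54.7 and 83.8 FPKM in resistant and 94.6, 55.9 and 62.4 FPKM in susceptible livers. PROZ, protein Z, a cofactor in the inhibition of F10 and a neighbour of F10 on chromosome 1 at 12.435 kb, had 61.2, 62.5 and 29.8 FPKM in resistant and 26.8, 72.9 and 55.2 FPKM in susceptible livers. From high to low, PROC ran in the order of birds 3, 1 and 2 in both groups, while PROS1 had no such shared order. PROZ was lowest in susceptible 1 and resistant 3.

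Spread between birds differed widely among the members. The SD of log2 values over the 6 birds was 1.59 for C6, 1.01 for MBL2, 0.86 for FGA, 0.81 for FGB and 0.78 for C5. The smallest were 0.24 for F2, 0.28 for MASP1 and 0.30 for C8G. Resistant 3 was the highest resistant bird for 20 of the 29 members (69.0%), against 52.5% of genes above 0 in all birds. Susceptible 3 was the highest susceptible bird for 22 of the 29 (75.9%), against 37.4% of those genes. Summed over the 29, the level was 10565, 10736 and 22952 FPKM in resistant livers, against 14084, 10712 and 24529 FPKM in susceptible livers. The fibrinogen chains made 15593 FPKM of this sum in resistant 3 and 15551 FPKM in susceptible 3. The sum of the vitamin K-dependent members (F2, F7, F9, F10, PROC, PROS1 and PROZ) did not follow the fibrinogen pattern. It was 1052, 1280.1 and 1093 FPKM in resistant and 1134, 1239 and 1574 FPKM in susceptible livers. Most of this sum was F2 in every bird, at 744 to 1159 FPKM. PROC did have both number 3 birds above the others, at 84.2 and 97.4 FPKM against 32.6 to 70.5 FPKM.

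**Figure D3:**
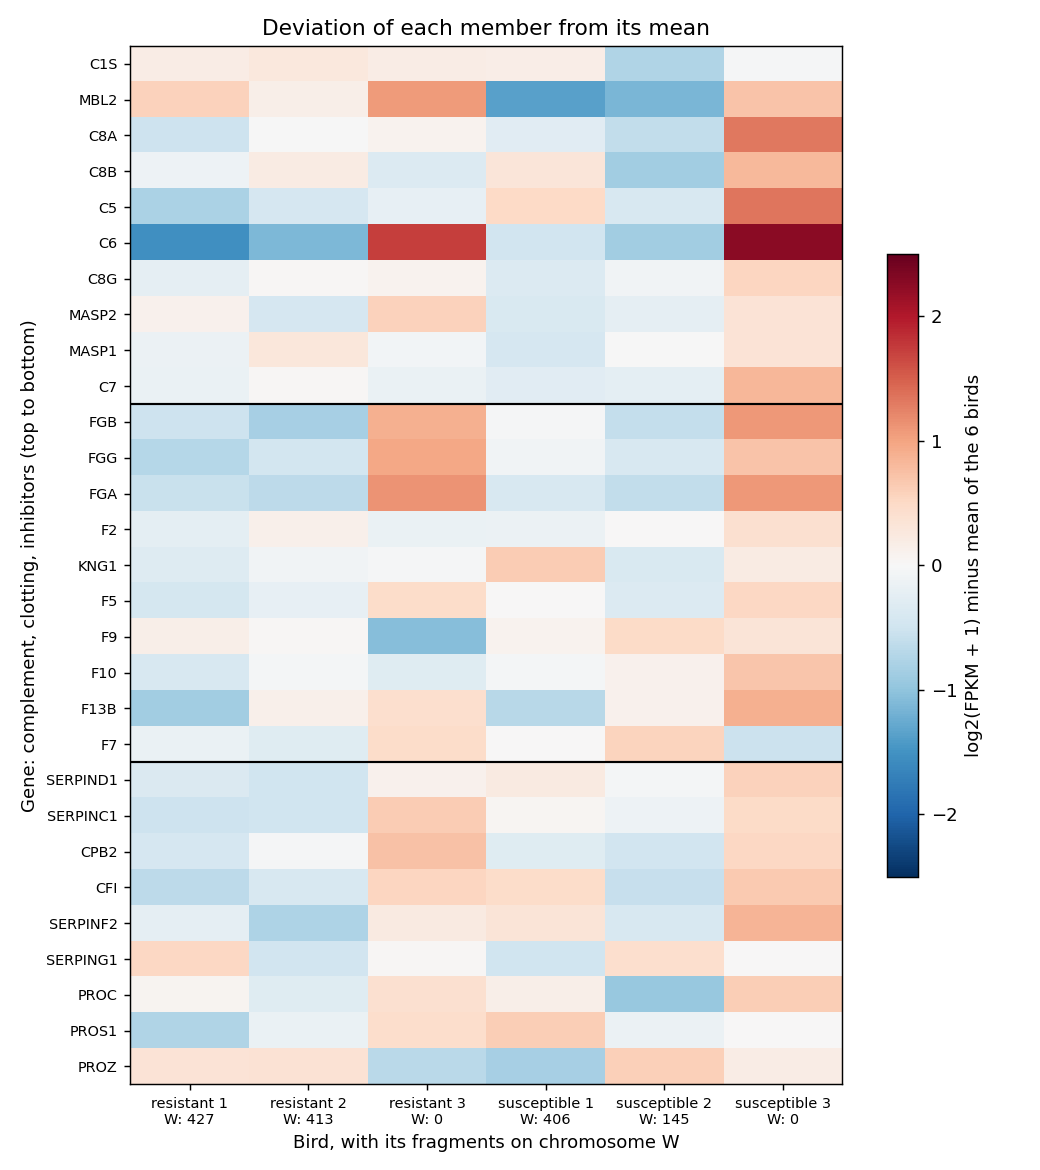
Deviation of each tested member from its mean over the 6 birds, in log2(FPKM + 1) (color), by gene (rows, complement, clotting and inhibitor members from top to bottom) and by bird (columns, with the fragments on chromosome W). Red marks high values; the columns of resistant 3 and susceptible 3, each with 0 fragments on chromosome W, are red for C6 and the fibrinogen chains.

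Because the high birds were the 2 without chromosome W fragments, the members were compared by that property in a model that also held the group, a comparison chosen after the data were seen. C6 was higher in the birds without these fragments, and it was the 1 member that passed the adjusted threshold. High values of C6 and other members led to this split, so the members' p-values describe it and do not test it. The level of C6 was 156 and 225 FPKM in the birds without W fragments, against 15.4 to 33.0 FPKM in the 4 with them. The ratio of means was 8.11-fold. The log2 difference was 2.99 (SE 0.38, interval 2.12 to 3.87), and the adjusted p by limma was 0.023. Of all genes tested 0.0312% passed in that direction and 0.312% passed as lower in the birds without these fragments, where 0 of 29 members did. The call of C6 did not hold without any 1 of the 6 birds (adjusted p 0.139 to 0.695, log2 difference 2.90 to 3.09), nor with no filter on low values (adjusted p 0.143). Where resistant 3 or susceptible 3 is left out, 1 bird without W fragments remains and the spread comes from the other birds.

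C6 lies on chromosome Z, of which hens carry a single copy, and Z genes as a whole lay higher in the birds without W fragments. The median log2 difference was 0.71 for the 472 Z genes tested and 0.14 for genes on other chromosomes. Among the 248 Z genes above 0 in all birds the median was 0.67, and C6 had the largest difference. For its neighbour C7 the difference was 0.49 (SE 0.56, interval -0.80 to 1.79).

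At an unadjusted limma p under 0.05, 10 of the 29 members (34.5%) lay higher in the birds without W fragments, against 5.8% of all genes. At that threshold 0 lay lower, against 4.78%. The members' own high values led to this split of birds, so the counts describe it and do not test it. The 10 were the complement members C6, MBL2 and C8A, the clotting members FGA, FGB, FGG and F5, and the inhibitors CPB2, SERPINC1 and CFI. Without resistant 1 the count of members higher was 6 (20.7%), against 3.78% of all genes. It was 4 (13.8%) without resistant 3, against 6.54%, and 6 (20.7%) without susceptible 3, against 6.04%. After rescaling by median ratios it was 6 (20.7%), against 4.06%. The fibrinogen chains followed C6 in order of p but did not pass: the log2 difference was 1.66 (SE 0.27, adjusted p 0.064) for FGA, 1.48 (SE 0.30, adjusted p 0.157) for FGB and 1.25 (SE 0.30, adjusted p 0.193) for FGG by limma. As ratios of means these were 3.15-fold, 2.74-fold and 2.36-fold. FGA averaged 4571 FPKM in the 2 birds without W fragments, against 1452 ± 120 FPKM in the 4 birds with them (SD, n = 4).

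The other 6 of the 10 did not pass either. MBL2 differed by 1.33 (SE 0.38), C8A by 1.05 (SE 0.41), CPB2 by 0.93 (SE 0.29), CFI by 0.89 (SE 0.36), SERPINC1 by 0.83 (SE 0.29) and F5 by 0.73 (SE 0.30) on the log2 scale, with limma adjusted p-values between 0.28 and 0.468. Without resistant 3 the values were 1.96 for MBL2 and 1.76 for C8A. They were 0.70 and 0.35 without susceptible 3, where neither gene had an unadjusted p under 0.05. F2 differed by 0.19 (SE 0.30), KNG1 by 0.14 (SE 0.35) and C1S by 0.12 (SE 0.34). The difference was below 0 for F9 at -0.56 (SE 0.40), for PROZ at -0.36 (SE 0.52) and for F7 at -0.06 (SE 0.53). Over the 29 the median was 0.68, with 0.59 for complement, 0.51 for clotting and 0.76 for inhibitors, against 0.17 over all genes tested. Lists of other genes, given below, had medians on both sides of that of the members. The complement median was 1.10 without resistant 3 and 0.26 without susceptible 3.

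Both birds without W fragments lay above all 4 others for 14 of the 29 members (48.3%), against 13.3% of all genes tested and 16.5% of genes above 0 in all birds. They lay below all 4 for 0 members, against 6.6% of all genes and 7.19% of genes above 0 in all birds. These counts too describe a split of birds that the members' own high values led to. With 1 bird set against 4, the first count was 22 (75.9%) without resistant 3, against 28.4% of all genes, and 14 (48.3%) without susceptible 3, against 30.9%. After rescaling by median ratios it was 11 (37.9%), against 9.74%. The 14 were C6, MBL2, C8A, C8G and MASP2 of complement, FGA, FGB, FGG, F5 and F13B of clotting, and SERPINC1, CPB2, CFI and PROC of the inhibitors. With this property in the model, the group difference had an unadjusted limma p of 0.010 for MBL2 (SE 0.36) and 0.036 for C5 (SE 0.38), and their adjusted p-values were 0.86 and 0.90. These 2 of 29 members (6.9%) stand beside 5.19% of all genes.

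**Figure D4:**
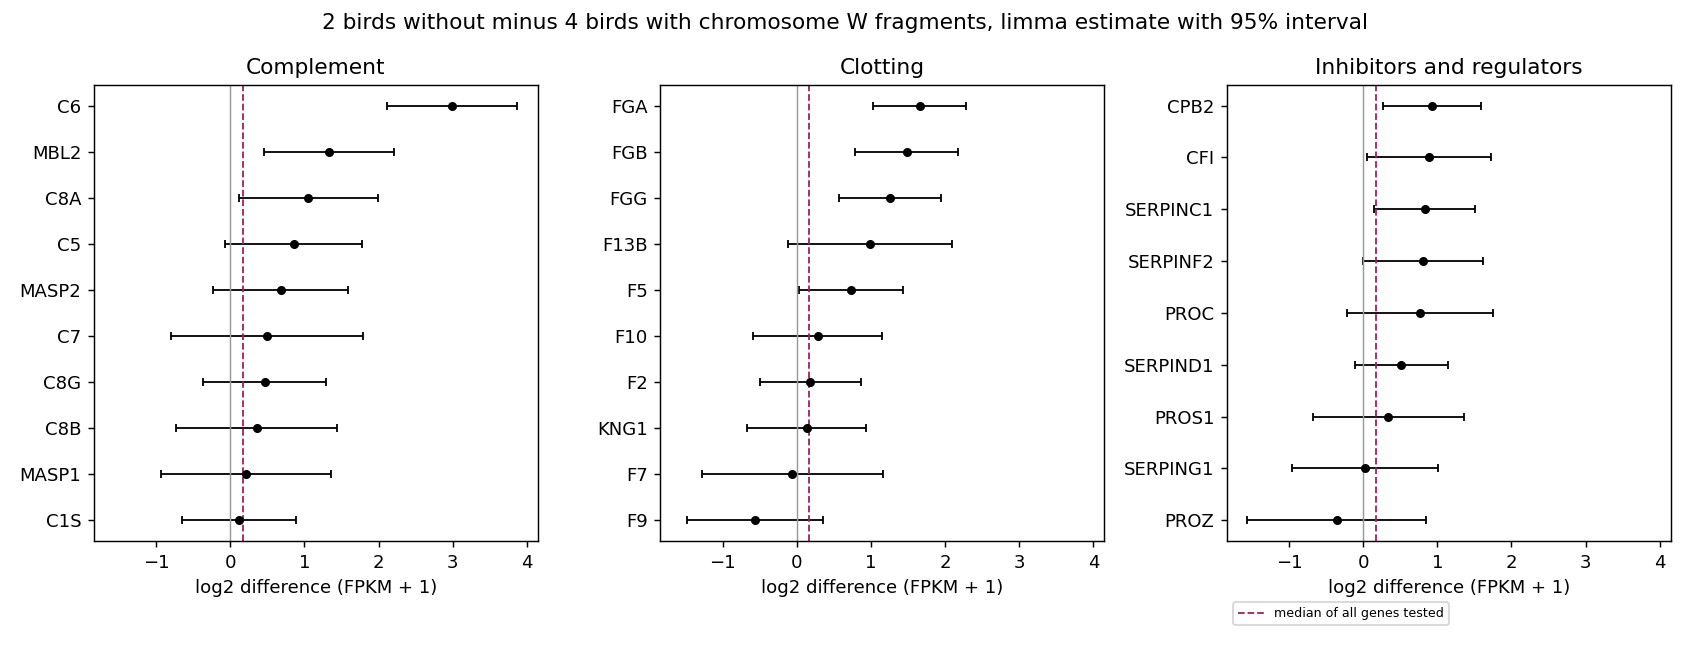
Difference in log2(FPKM + 1) of each tested member between the 2 birds without and the 4 birds with chromosome W fragments (x axis, points, with 95% intervals from a limma model that also holds the group), in 3 panels ordered by size. C6 stands farthest to the right at 2.99, followed by FGA, FGB, MBL2 and FGG; the dashed line is the median of all genes tested.

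Some other measures moved with the same pair of birds and others overlapped with the rest, and their part in these results was not tested. VTG2 and APOV1, yolk precursor genes that oestrogen induces in the liver of laying hens, were named after their values were seen. VTG2 had 9.65 FPKM in resistant 3 and 20.6 FPKM in susceptible 3, against 3345 to 18820 FPKM in the 4 birds with W fragments. APOV1 had 12.8 and 51.8 FPKM in the birds without W fragments, against 2587 to 24188 FPKM in the others. Chromosome W, the yolk genes and bird number 3 cannot be told apart in these 6 birds. The summed level of 8 macrophage markers in the table, none at 0 in all birds, was 551 to 591 FPKM without and 202 to 433 FPKM with W fragments. Of these 8, 4 were higher in both birds without W fragments than in all 4 with them, against 13.3% of all genes tested. The log2 difference was above 0 for 6 of the 8 and below 0 for 2, C1QA at -0.31 (SE 0.57) and MPEG1 at -0.10 (SE 0.41). The table held 11 endothelial markers, of which 9 were tested and ROBO4 was at 0 in all birds. Their sum was 162 to 299 FPKM without and 89.5 to 159.7 FPKM with W fragments, with 3 of the 9 above, against the same 13.3%. The log2 difference was above 0 for 7 of the 9 and below 0 for 2. The sum of 8 stellate cell markers was 250.4 to 258 FPKM without and 189 to 278 FPKM with W fragments. DCN led this sum, at 145 to 219 FPKM in a bird. The log2 difference was above 0 for 7 of the 8 and below 0 for 1, RGS5 at -0.43 (SE 0.51). Of these 8, 2 lay above, against 13.3% of all genes. The sum of 10 T and NK cell markers, with LCK at 0 in all birds, was 67.8 to 86.7 FPKM without and 19.0 to 61.1 FPKM with W fragments. Of the 8 tested, 1 lay above, beside 13.3% of all genes. Leaving out CD3D, the sums overlap, at 20.9 to 63.9 FPKM without and 10.2 to 43.7 FPKM with W fragments. That of 5 B and plasma cell markers, with PAX5 and MZB1 at 0 in all birds, was 12.9 to 22.5 FPKM without and 31.1 to 39.8 FPKM with W fragments. The sum of the 10 hepatocyte markers other than ALB and APOB was 27390.5 to 27570.2 FPKM without and 17476 to 28439 FPKM with W fragments. Of all 12 hepatocyte markers, the log2 difference was above 0 for 9 and below 0 for 3, with a median of 0.31. These counts include ALB at -3.69 (SE 5.04) and APOB at 0.48 (SE 2.83), whose values rest on their listed 0s. CPS1, also below 0, had at most 3.90 FPKM in a bird. Both birds without W fragments lay above all 4 others for 2 of the 12, against 13.3% of all genes. They lay below all 4 for 1, against 6.6%. At an unadjusted limma p under 0.05, 2 were higher and 1 lower, against 5.8% and 4.78% of all genes.

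**Figure D5:**
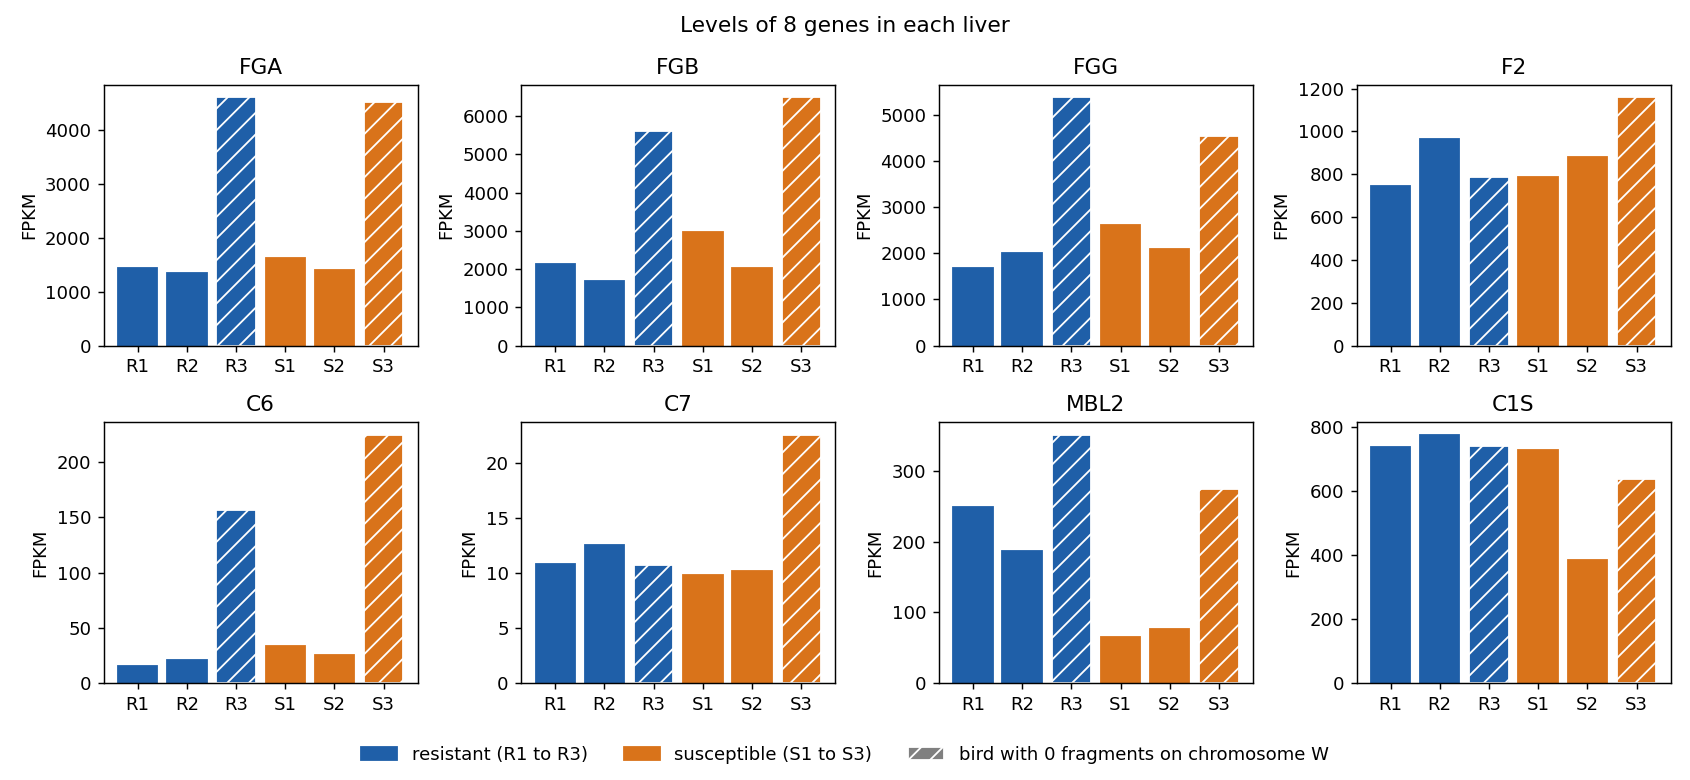
FPKM (bars, y axis from 0, own scale per panel) of FGA, FGB, FGG, F2, C6, C7, MBL2 and C1S in each liver, blue for resistant and orange for susceptible birds; hatched bars are the birds with 0 fragments on chromosome W. FGA, FGB, FGG and C6 have 2 tall hatched bars, F2 has no tall pair, and MBL2 is lowest in susceptible 1 and 2.

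Further genes of the same pathways were read from 3 lists. No gene of these lists passed the adjusted threshold of limma in either contrast. Of 15 other complement genes tested, the log2 difference between resistant and susceptible livers was above 0 for 10 and below 0 for 5, and of 22 other clotting and fibrinolysis genes for 9 and 13. At an unadjusted p under 0.05 neither list counted a gene. Of 13 genes of the acute phase and its control, 3 were above and 10 below 0.

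In the contrast by W fragments, SERPINA10, the serpin that inhibits F10 with protein Z as its cofactor, had 8035 FPKM in resistant 3 and 3117 FPKM in susceptible 3, against 339.6 to 1760.2 FPKM in the 4 birds with them. Its log2 difference was 2.38 (SE 0.66, limma adjusted p 0.272). The cofactor PROZ was at its resistant low of 29.8 FPKM in resistant 3. In susceptible 3 it had 55.2 FPKM, between 26.8 FPKM in susceptible 1 and 72.9 FPKM in susceptible 2. The log2 difference of PROZ was -0.36 (SE 0.52). C2, the protease subunit of the classical and lectin C3 convertase, had 34.4 and 77.0 FPKM in the birds without W fragments, against 9.82 to 23.3 FPKM with them, and the log2 difference was 1.56 (SE 0.56). HABP2, a plasma protease that acts on F7, and LMAN1, which carries F5 and F8 through the secretory pathway and lies on chromosome Z, differed by 0.75 (SE 0.29) and 0.76 (SE 0.33). Unadjusted p-values of SERPINA10, C2, HABP2 and LMAN1 lay under the 0.05 threshold in limma, all 4 with higher levels in the birds without W fragments. They were 1 of 15 other complement genes and 3 of 22 other clotting and fibrinolysis genes, against 5.8% of all genes in that direction. Of the 472 Z genes tested, 77 were higher at that threshold. The log2 difference by W fragments was above 0 for 12 of the 15 other complement genes (median 0.51). It was above 0 for 16 of the 22 other clotting and fibrinolysis genes (median 0.63). The median was 0.68 over the 29 members. It was 0.90 for macrophage, 0.88 for endothelial and 0.80 for stellate cell markers, 0.31 for hepatocyte and -0.46 for bile duct markers.

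Of the 13 genes of the acute phase and its control, 9 lay above 0 and 4 below 0 in that contrast. Their median log2 difference was 0.41, against 0.17 over all genes tested. At an unadjusted limma p under 0.05, 1 was higher (CP), against 5.8% of all genes. At that threshold 2 were lower (AHSG and CEBPB), against 4.78%. CP, ceruloplasmin, an acute-phase protein of mammals, had 377 and 411 FPKM in the birds without W fragments, against 170.2 to 258 FPKM with them, and its log2 difference was 0.89 (SE 0.31). AHSG, also on the list of hepatocyte markers, is a plasma glycoprotein that in humans falls in the acute phase. It had 628 and 1107 FPKM in the birds without W fragments, against 2016 to 2465 FPKM with them. Its log2 difference was -1.44 (SE 0.31, limma adjusted p 0.173). CEBPB, a transcription factor of acute-phase genes in mammals, had 41.8 and 44.2 FPKM without W fragments, against 71.6 to 126 FPKM with them, and its log2 difference was -1.10 (SE 0.38). Among cell type markers, 3 had an unadjusted limma p under 0.05 between resistant and susceptible livers and no adjusted p under 0.98. These were 1 of 2 heterophil, 1 of 8 stellate cell and 1 of 8 T and NK cell markers tested, with 0 on the other marker lists. Of all genes tested 3.87% had such an unadjusted p. LYG2 had 23.7, 14.9 and 20.7 FPKM in resistant livers, against 9.43, 0 and 0 FPKM in susceptible livers. LRAT had 2.03, 2.88 and 6.34 FPKM in resistant livers and was listed at 0 in the 3 susceptible livers. CD247 had 6.49, 7.36 and 16.0 FPKM in resistant livers, against 5.85, 0 and 0 FPKM in susceptible livers.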

How the data were processed

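Total liver RNA of 6 birds was sequenced. Titles gave each bird's group and number. The authors deposited FPKM values. Tools listed in the submitters' processing notes are cutadapt 1.9.3, HISAT2 2.0.4, Cufflinks, and Cuffdiff, with galGal4 as the build and no roles given. The authors also deposited a normalized signal (scaled gene counts), in which 99.5% to 99.7% of a bird's values above 0.1 lay within 0.02 of a whole multiple of its smallest step. That step was read as 1 fragment, which gave the fragment totals. These cover counting error only. Columns of other samples numbered 0. Positions are the table's own, counted from 1.

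log2(FPKM + 1) was tested with limma 3.58.1 in R 4.3.3 (lmFit, eBayes with a trend, 2-sided, Benjamini-Hochberg over the 9626 genes with a mean of at least 0.5 FPKM, threshold 0.05). This scale understates changes of low genes. P-values measure the spread between birds. The test was checked first on made-up data with known changes. No 2 libraries of a group were duplicates (chi-square per degree of freedom 144 or more). All members in the table are named, and of the further lists those with an unadjusted p under 0.05, of which 1 gene is not reported here. Members and lists were chosen with earlier results of these data known. The comparison by chromosome W fragments was chosen after the data were seen. Alternatives were a pseudocount of 0.1, no filter, a filter of 5 FPKM, 0s as missing, quantile normalization, median ratios, scaled counts, a replicate block, leaving out each bird, the 4 birds with W fragments, and the Z-to-autosome level or W fragments as a term. Plots used matplotlib 3.10.9 and Python 3.11.15.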

Additional observations from a re-analysis of the deposited data

How the results depend on the processing

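No member and no other gene passed the adjusted threshold between resistant and susceptible livers under the alternatives run. The count of members at an unadjusted p under 0.05 was 0; it was 1 with 0s as missing, quantile normalization, median ratios, scaled counts or the 4 birds with W fragments, 2 with the Z-to-autosome covariate or the W term, and 0 to 1 without each bird. These were MBL2, or C5 without susceptible 2, and both where the count was 2. The replicate block also gave 2 (MBL2 and C5). Of 9626 genes tested, 373 had such a p in the main fit, 371 under quantile normalization, 401 under median ratios and 282 with scaled counts. The count was 834 in the 4 birds with W fragments, 527 with the Z-to-autosome covariate, 500 with the W term and 458 with the replicate block. It was 344 to 604 without each bird, and 426 of 8455 genes with 0s as missing. Same-numbered birds correlated in their deviations at 0.01, 0.04 and 0.17, so the numbers were not taken as pairs, and not every bird correlated best with its own number. In the comparison by W fragments no block was run, since the third number and the absence of W fragments are the same birds. The tests on whole reads (edgeR and DESeq2) were not run, since the check for whole reads in the scaled counts did not pass. The fragment counts given above come from the same scaled counts, with their step read as 1 fragment.

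Group differences that turned sign, as log2 values, were F2 0.084, FGA 0.16, FGG 0.034, F5 0.020, F7 0.091 and C8G 0.042 under quantile normalization, and FGA 0.0315, F7 0.068 and C8G 0.023 under median ratios. In the 4 birds with W fragments they were F2 0.024, C8A 0.19, C8B 0.32, C7 0.20 and C8G 0.12. Without each bird they ran from -0.32 to 0.45 for PROC, -0.59 to 0.19 for F13B, -0.077 to 0.42 for MASP2, -0.19 to 0.31 for SERPING1, -0.15 to 0.24 for MASP1, -0.83 to 0.16 for FGB, -0.64 to 0.47 for FGA and -0.66 to 0.18 for FGG. The ranges were -0.66 to 0.30 for C8A, -0.65 to 0.19 for C8B, -0.40 to 0.17 for C7, -1.63 to 0.37 for C6, -0.39 to 0.10 for F5, -0.38 to 0.37 for PROZ, -0.29 to 0.25 for F7, -0.14 to 0.48 for CPB2 and -0.25 to 0.18 for C8G.

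By W fragments, 33 genes passed the adjusted threshold; with a pseudocount of 0.1, no filter and 0s as missing the counts were 21, 0 and 55, and 0 to 10 without each bird (10 without susceptible 1, 1 without susceptible 2 and 0 without any other). Among members 1 passed; 0 did with no filter, 2 with a filter of 5 FPKM (FGA added, adjusted p 0.026), 4 with 0s as missing (FGA, FGB and FGG added), and 0 without any 1 bird. The 10 members at an unadjusted p under 0.05 were 6 under median ratios and 4 to 10 without each bird. Those higher were 4 (13.8%) without resistant 3, against 6.54% of all genes, and between 3.29% and 7.51% of all genes were higher without each bird. The complement median of 0.59 ran from 0.26 to 1.10 without each bird. The 14 members above all birds with W fragments were 11 under median ratios (9.74% of all genes), 12 under quantile normalization (10.2%) and 14 to 22 without each bird (22 without resistant 3), where 14.7% to 30.9% of all genes did so. The median of all genes was 0.17, and -0.01 under median ratios and 0.04 under quantile normalization. Values that turned sign were SERPING1 -0.13 and MASP1 -0.0091 under quantile normalization, and SERPING1 -0.19, F2 -0.034, KNG1 -0.084 and C1S -0.10 under median ratios. Without each bird they ran from -1.15 to 0.036 for F9, -0.18 to 0.24 for SERPING1, -0.13 to 0.56 for MASP1, -0.11 to 0.48 for F2, -0.077 to 0.36 for KNG1, -0.38 to 1.09 for C8B, -0.10 to 0.29 for C1S, -0.11 to 1.10 for C7, -0.22 to 0.90 for PROS1, -1.03 to 0.31 for PROZ, -0.81 to 0.69 for F7 and -0.090 to 0.65 for F10. The cause of these changes was not tested. The intervals given above show the precision of the limma fits, which rest on 3 birds a group for resistant against susceptible livers. For the comparison by W fragments they rest on 2 birds against 4.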
